A study of Mus musculus with 9 samples.

Results

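The genes described here are 39 genes of DNA double-strand break signalling and repair and of excision repair, chosen by symbol from a list of repair genes and found once each among the 46517 genes of the expression tables. Duodenal crypt organoids from wild-type C57BL/6 mice, grown in 5% O2 in L-WRN conditioned medium (medium of a cell line that secretes Wnt3a, R-spondin 3 and noggin), were dissociated to single cells and transduced at 50 adenoviral particles per cell, and RNA was taken about 72 h later. The 3 control cultures received Ad-GFP, which carries only green fluorescent protein, 3 cultures received Ad-hHIF2 and 3 received Ad-hHIF1. These vectors carry human HIF2 or HIF1 in which the prolines that mark the protein for VHL-dependent degradation are replaced by alanine, so that the protein is stable in oxygen. The cultures were started from crypts, and the age and sex of the mice are not given in the sources used here. The study counted the cultures as 3 biological replicates per group, numbered 1, 3 and 4 in every group.

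Cells meet broken and chemically altered DNA with several repair routes. The kinases ATM and ATR sense breaks and stalled replication and signal through CHK2 and CHK1. Breaks are then rejoined either directly by end joining, which begins with the Ku heterodimer, or by homologous recombination, which copies an intact sister chromatid. Excision repair instead replaces damaged or mispaired bases on a single strand, by base excision, nucleotide excision or mismatch repair, and ends with a DNA ligase. In the intestinal crypt these routes bear on how stem cells survive radiation. The study asked how HIF2 protects the small intestine from radiation, and examined HIF1 to learn more on the HIFs in intestinal stem cells. The labels of these organoids name no irradiation.

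Levels were taken from expected counts, the read counts that RSEM assigns to each gene, and are given as CPM, counts scaled to the normalised total of each library. Library totals ran from 21722618 to 51119041 counts. Epas1, the mouse gene for HIF2α, was at 1.63, 1.44 and 2.15 CPM in Ad-GFP, 765, 620 and 665 CPM in Ad-hHIF2, and 1.69, 2.99 and 1.59 CPM in Ad-hHIF1 organoids, where reads of the human transgene and of the mouse gene cannot be told apart. Hif1a was at 196 to 245 CPM in Ad-GFP and 305 to 312 CPM in Ad-hHIF1 organoids, a log2 difference of 0.49 that did not pass the test (adjusted p = 0.486, edgeR). Human and mouse reads cannot be told apart for Hif1a either. The 5 epithelial markers summed to 2010 to 2620 CPM in the 9 samples, mostly from the keratins Krt8 (997 to 1390 CPM) and Krt19 (776 to 1180 CPM) and from Cdh1 (199 to 355 CPM), while Epcam was at only 1.43 to 3.77 CPM and Vil1 at 3.32 to 5.03 CPM. In Ad-hHIF2 against Ad-GFP, Cdh1 rose (log2 fold change 0.535, adjusted p = 0.00313, edgeR) and Epcam fell (-0.81, adjusted p = 0.0472). The intestinal stem cell markers Lgr5, Olfm4, Ascl2 and Smoc2 summed to only 0.271 to 1.32 CPM. The 5 enterocyte markers summed to 0.163 to 0.341 CPM in Ad-GFP, 2.82 to 3.52 CPM in Ad-hHIF2 and 0.292 to 0.573 CPM in Ad-hHIF1 organoids, and the 6 secretory markers, of which 1 was at 0 in every sample, to 4.71 to 7.32, 1.55 to 2.07 and 3.56 to 4.27 CPM. Markers of fibroblasts, among them Col1a1 (2.15 to 4.32 CPM) and Pdgfra (2.89 to 4.2 CPM) in every sample, summed to 6.78 to 12.5, of leukocytes to 10 to 16.8 and of endothelium to 1.01 to 2.98 CPM. The leukocyte sum was mostly Cd68 (8 to 15 CPM), which did not pass in Ad-hHIF2 against Ad-GFP (0.378, adjusted p = 0.179, edgeR). The leukocyte marker Ptprc fell there (-3.916, adjusted p = 0.00472), and the lower values of Lyz2 (-0.867, 0.0916), Col1a2 (-0.716, 0.109) and Dcn (-1.369, 0.116) did not pass. In Ad-hHIF2 the enterocyte sum was mostly Apoa4, at 2.24, 2.88 and 2.5 CPM, with Fabp1 at 0 there, and the secretory sum was mostly Muc2 in all 9 samples (1.53 to 7.32 CPM). The part of these marker differences in the results below was not tested. In the library Ad-hHIF1 replicate 3, the satellite genes Gm10800 and Gm26870 took 16.0% of the counts, against 0.433% to 4.28% in the other 8 libraries. Ad-hHIF2 replicate 1 also stood apart, with a normalization factor of 1.3, against 0.928 to 1.01 in the other 8. The 39 repair genes took 0.0635% of its counts before normalization, against 0.0451% to 0.0519%.

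All 39 repair genes were measurable, mostly at moderate levels, and all passed the filter on low counts in each comparison. A repair gene had a median count of 316, beside 301 for the 14987 genes that could be tested for Ad-hHIF2, and counts ran from 3 for Fanca in Ad-hHIF1 replicate 3 to 3086 for Trp53bp1. Their median level in Ad-GFP organoids was 3.76 CPM per kb of effective length, against 4.11 for all tested genes. Effective length is the part of the transcripts that RSEM allows reads to start from.

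On this scale per length the base excision endonuclease Apex1, at 19.2 ± 1.23 CPM per kb (SD, n = 3), the Ku70 gene Xrcc6, at 16.3 ± 1.1, and the damage adaptor Trp53bp1, at 15.9 ± 1.44, stood near the top. Brca2 ranked first at 26.0 ± 5.55 CPM per kb, with a mean effective length of only 853 bases (570 to 1209 over the samples). Its expected counts were whole in no sample and its level moved with the share of satellite counts, so this rank is uncertain. Whether its reads came from short or repeat-containing transcripts was not tested. The lowest levels were those of the Fanconi genes Fancd2, at 0.277 ± 0.0507, and Fanci, at 0.247 ± 0.0984, below the recombination genes Rad54l, at 0.354 ± 0.175, and Brca1, at 0.475 ± 0.0644 CPM per kb. Of the 10 recombination genes, 7 lay below 1 CPM per kb and the others were Brca2, Rad52 and Xrcc3. The 4 lowest genes differed from their neighbours in the order by less than the larger SD of the pair.

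**Figure D1:**
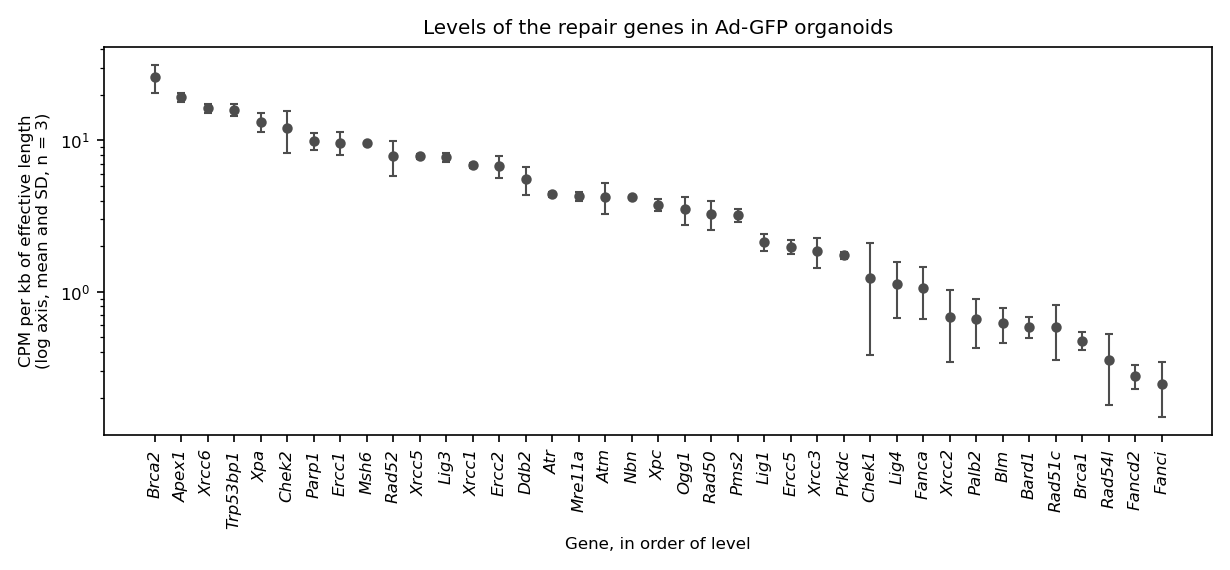
Level of each of the 39 repair genes in Ad-GFP organoids, as CPM per kb of effective length on a log axis, with the mean as a point and the SD of 3 samples as a bar, in order of level. Brca2, Apex1, Xrcc6 and Trp53bp1 lie above 15 CPM per kb and Brca1, Rad54l, Fancd2 and Fanci lie lowest. The place of Brca2 rests on a mean effective length of 853 bases and is uncertain.

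The promoters of the repair genes with the smallest p in each direction between Ad-hHIF2 and Ad-GFP are printed first, so that the letters that HIF proteins can bind may be seen beside the gene's response. For the lower genes these are Apex1, Atr and Xrcc6 and for the higher genes Lig1 and Msh6. Each run is the 250 bases before the annotated start, 5′ to 3′ on the gene's strand (the plus strand for all 5), from the RefSeq annotation of GRCm38.p6. Capitals mark ACGTG or GCGTG, the HIF core letters, and TTTGGCGC, TTTCCCGC or TTTCGCGC, E2F letters, on either strand, and a match on the other strand reads as the reverse complement of these letters. The positions are chr14:50924699-50924948 for Apex1, chr9:95857347-95857596 for Atr, chr15:82016119-82016368 for Xrcc6, chr7:13276925-13277174 for Lig1, which has 3 annotated starts of which the first in the table is shown, and chr17:87974800-87975049 for Msh6. The Xrcc6 start in this table lies inside the longer gene of the GENCODE annotation.
Apex1 promoter: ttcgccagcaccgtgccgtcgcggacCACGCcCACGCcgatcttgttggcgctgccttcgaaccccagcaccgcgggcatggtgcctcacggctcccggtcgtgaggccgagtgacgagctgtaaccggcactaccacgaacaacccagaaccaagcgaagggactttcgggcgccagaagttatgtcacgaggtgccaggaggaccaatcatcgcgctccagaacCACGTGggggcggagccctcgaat
Atr promoter: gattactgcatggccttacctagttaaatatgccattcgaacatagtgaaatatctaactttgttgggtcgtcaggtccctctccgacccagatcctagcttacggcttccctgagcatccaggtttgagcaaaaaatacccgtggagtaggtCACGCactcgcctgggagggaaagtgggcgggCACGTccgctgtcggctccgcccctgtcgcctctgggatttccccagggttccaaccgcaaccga
Xrcc6 promoter: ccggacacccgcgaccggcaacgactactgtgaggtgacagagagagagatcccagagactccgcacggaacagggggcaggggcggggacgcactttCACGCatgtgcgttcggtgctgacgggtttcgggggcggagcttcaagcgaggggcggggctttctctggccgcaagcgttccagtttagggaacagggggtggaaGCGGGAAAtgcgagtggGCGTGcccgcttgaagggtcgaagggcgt
Lig1 promoter: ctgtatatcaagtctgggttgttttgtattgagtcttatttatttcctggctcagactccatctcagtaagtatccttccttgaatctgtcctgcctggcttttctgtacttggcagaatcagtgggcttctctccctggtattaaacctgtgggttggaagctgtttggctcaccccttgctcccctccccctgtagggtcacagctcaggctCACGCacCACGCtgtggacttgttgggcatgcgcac
Msh6 promoter: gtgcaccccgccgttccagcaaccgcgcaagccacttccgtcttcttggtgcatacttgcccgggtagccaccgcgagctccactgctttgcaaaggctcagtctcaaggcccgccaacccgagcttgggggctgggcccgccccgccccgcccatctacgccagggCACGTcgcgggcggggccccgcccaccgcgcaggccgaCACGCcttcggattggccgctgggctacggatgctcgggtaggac

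Of the 39 genes, 32 had a promoter in the RefSeq table. With the 50 bases after the start included, 23 of the 32 promoters held ACGTG or GCGTG (71.9%), beside 46.7% of the 27025 gene symbols of the table and 67.6% of the 9966 symbols with an entry among those 14987 tested genes. All 5 printed promoters held these letters, the lower genes as well as the higher ones. Apex1 had 4 matches, of which 2 are the overlapping strands of the letters CACGTG, and Atr, Xrcc6, Lig1 and Msh6 had 2 each. An E2F match was found in 7 of the 32 promoters (21.9%), those of Chek2, Brca2, Bard1, Rad51c, Xrcc6, Lig1 and Msh6, beside 2.1% of all symbols and 4.0% of the tested ones. The letters TTTGAA, the CHR element of genes of the dividing cell, were found in 2, Bard1 and Ercc5 (6.2%, beside 20.2% of all symbols and 14.0% of tested ones). A match describes the letters only.

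Between Ad-hHIF2 and Ad-GFP organoids, 10 of the 39 repair genes changed, all by less than 2-fold. The DNA ligase Lig1, the break-binding Rad50, the damage sensor Xpc and the mismatch reader Msh6 were higher. Lower were Apex1, the kinases Atr and Atm, both Ku subunits, Xrcc6 and Xrcc5, and Brca2. The largest of these differences were 1.75-fold lower for Apex1 and 1.70-fold higher for Lig1. In bulk organoids a smaller number of cells of a type and less RNA per cell cannot be told apart.

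In numbers, 4 genes rose and 6 fell at an adjusted p below 0.05 (edgeR's quasi-likelihood test, Benjamini-Hochberg over 14987 genes), where 15.9% of all tested genes rose and 13.6% fell. The 10 genes are 25.6% of the list, beside 29.5% of all tested genes, so the share of repair genes called was near the background. None of the 39 passed together with a 2-fold change, which 6.73% of all genes did. These groups did not overlap for 12 repair genes that were higher with HIF2 and 9 that were lower, where 26.8% and 19.8% of all tested genes did so. The median log2 fold change of the 39 was 0.06, beside -0.01 for all genes, and their range was -1.01 for Bard1 to 0.76 for Lig1. Leaving out Ad-GFP replicate 1, Ad-GFP replicate 4 or Ad-hHIF2 replicate 1 turned the median to -0.039, -0.017 and -0.01, and leaving out Ad-hHIF2 replicate 4 to -0.005. The genes that rose numbered 2 without Ad-GFP replicate 1, Ad-GFP replicate 3, Ad-hHIF2 replicate 1 or Ad-hHIF2 replicate 4 and 1 without Ad-hHIF2 replicate 3, and those that fell numbered 3 without Ad-hHIF2 replicate 1.

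**Figure D2:**
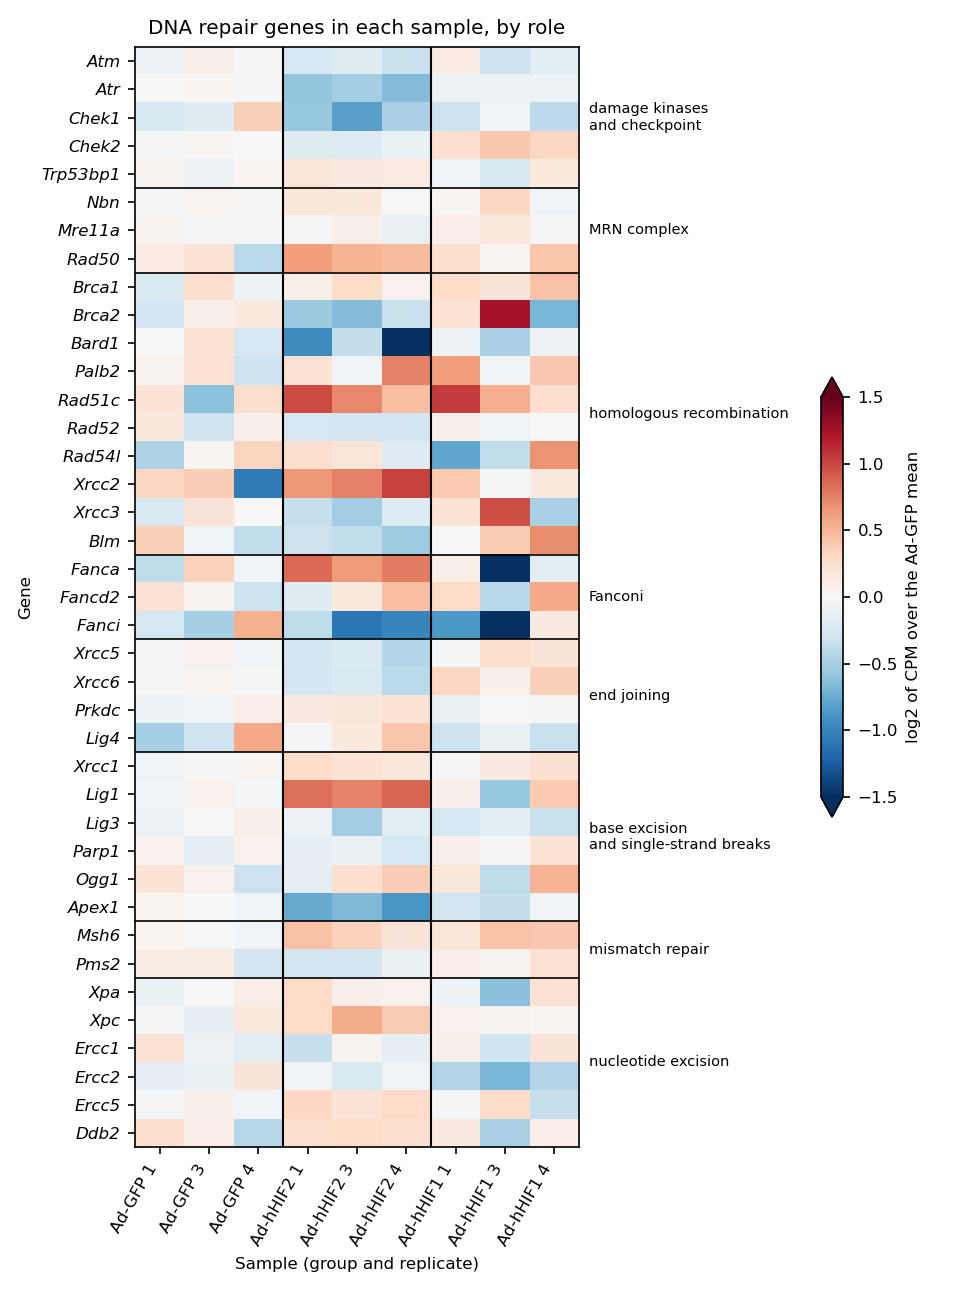
Heat map of the 39 repair genes (rows, grouped by role) in the 9 samples (columns), with colour giving the log2 of a sample's CPM over the Ad-GFP mean, from blue for lower to red for higher and saturated at 1.5. The Ad-hHIF2 columns are blue in all 3 samples for Atr, Apex1, Xrcc5 and Xrcc6 and red in all 3 for Lig1, Rad50, Msh6 and Xpc.

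Of the 5 damage kinases and checkpoint genes, 2 fell and none rose in Ad-hHIF2 organoids. Atr (chromosome 9, 95857597 to 95951781 of GRCm38), the kinase of stalled replication forks, was at 25.8, 26.4 and 25.2 CPM in the Ad-GFP replicates 1, 3 and 4, at 17.1, 18.1 and 16.4 in Ad-hHIF2 and at 24.3, 24.2 and 24.3 in Ad-hHIF1. All 3 Ad-hHIF2 samples were thus lower than any of the other 6. The log2 fold change against Ad-GFP was -0.63 (SE 0.0719, 95% interval -0.79 to -0.47, adjusted p = 0.000374), or 1.55-fold lower. Atm (chromosome 9, 53439149 to 53536740), the kinase of double-strand breaks, was at 23.3, 26.0 and 24.2 CPM in Ad-GFP, 20.4, 21.6 and 19.4 in Ad-hHIF2 and 26.6, 19.7 and 22 in Ad-hHIF1 organoids. The Ad-hHIF2 samples were below all Ad-GFP samples (log2 fold change -0.305, SE 0.0784, adjusted p = 0.0193), but overlapped the spread-out Ad-hHIF1 samples. This call was lost without Ad-GFP replicate 3, Ad-hHIF2 replicate 1 or Ad-hHIF2 replicate 4 (adjusted p = 0.0764 to 0.0816), with DESeq2 (0.0518), without a count filter (0.0529) and in a single fit of all 9 samples (0.0528).

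The effector kinases and the adaptor did not pass the test against Ad-GFP. Chek2 (chromosome 5, 110839979 to 110874145), the kinase downstream of ATM, was at 8.54, 8.87 and 8.73 CPM in Ad-GFP, 7.71, 7.63 and 8.15 in Ad-hHIF2 and 10.4, 11.5 and 10.8 in Ad-hHIF1 organoids. The 3 groups did not overlap, with Ad-hHIF2 lowest and Ad-hHIF1 highest, at a log2 fold change of -0.20 for Ad-hHIF2 against Ad-GFP (adjusted p = 0.167). Chek1, downstream of ATR, had -0.65 (adjusted p = 0.123) at 43 to 64 counts a sample, and Trp53bp1, which favours end joining at breaks, had 0.10 (adjusted p = 0.324).

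Among the 3 genes of the MRN complex, which holds broken ends together and activates ATM, 1 rose. Rad50 (chromosome 11, 53649519 to 53707319), its ATPase, was at 17.7, 18.7 and 12.2 CPM in Ad-GFP, 25, 23.1 and 22.5 in Ad-hHIF2 and 19.3, 16.7 and 21.7 in Ad-hHIF1 organoids. Each Ad-hHIF2 sample exceeded the other 6, and Ad-GFP replicate 4 was the lowest of all. The log2 fold change was 0.485 (SE 0.139, adjusted p = 0.0299), and it no longer passed when Ad-hHIF2 replicate 1, 3 or 4 was left out (0.0628 to 0.0905). Its partners Nbn and Mre11a (the nuclease) had log2 fold changes of 0.08 and -0.06, with adjusted p of 0.588 and 0.662.

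The 10 homologous recombination genes held 1 call, a decrease. Brca2 (chromosome 5, 150522630 to 150570329), which loads the recombinase on resected ends, was at 15.9, 20.7 and 21.5 CPM in Ad-GFP, 13.2, 12.4 and 15.4 in Ad-hHIF2 and 22.4, 46.2 and 12.1 in Ad-hHIF1 organoids. The Ad-hHIF2 samples lay below all Ad-GFP samples, with a log2 fold change of -0.55 (SE 0.139, adjusted p = 0.0182), while the Ad-hHIF1 samples spanned both groups. The Brca2 level moved with the share of satellite counts. The 4 libraries with 2.89% or more of satellite counts held 20.7 CPM or more of Brca2, and the other 5, with at most 2.02%, held 15.9 or less, all 3 Ad-hHIF2 libraries among them. Its expected counts were whole in no sample, which means that part of its reads was shared with other genes, and the part of the satellite reads in the difference was not tested. The call was lost without Ad-GFP replicate 3, Ad-hHIF2 replicate 1 or Ad-hHIF2 replicate 3 (adjusted p = 0.0654 to 0.0717) and in a single fit of all 9 samples (0.329).

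The other 9 recombination genes did not pass and lay on both sides of 0. Bard1, the partner of Brca1, had the most negative value of the list, a log2 fold change of -1.01 (95% interval -1.89 to -0.13, adjusted p = 0.0823), from 3.22, 3.77 and 2.73 CPM in Ad-GFP to 1.68, 2.52 and 0.723 in Ad-hHIF2. The groups did not overlap, and the Ad-hHIF2 samples differed widely among themselves. On the positive side stood the recombinase paralogs Xrcc2, at 0.73 (adjusted p = 0.131), and Rad51c, at 0.70 (adjusted p = 0.102). Brca1 was at 2.22 to 3.07 CPM in Ad-GFP and 2.69 to 3.12 CPM in Ad-hHIF2 organoids, a log2 fold change of 0.10 with a 95% interval of -0.39 to 0.59. The helicase Blm had -0.47 (adjusted p = 0.184), and -0.25 without Ad-GFP replicate 1 (0.513). Xrcc3 had -0.40 (adjusted p = 0.17), Rad52 -0.31 (0.109), Palb2, which links Brca1 to Brca2, 0.29 (0.513) and Rad54l 0.06 (0.916). Like Brca2, Xrcc3 moved with the satellite share. It was at 3.71 to 7.22 CPM in the libraries with 2.89% or more of satellite counts and 2.58 to 3.22 CPM in the others. Its expected counts were whole in no sample, and the part of the satellite reads in its difference was not tested.

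None of the 3 Fanconi genes, which repair crosslinked DNA, passed. Fanca (chromosome 8, 123268300 to 123318576), of the core complex, had the smallest p of them, with 0.921, 1.52 and 1.17 CPM in Ad-GFP, 2.17, 1.87 and 2.04 in Ad-hHIF2 and 1.28, 0.128 and 1.07 in Ad-hHIF1 organoids. All Ad-hHIF2 samples were above the other 6, and the log2 fold change was 0.70 (95% interval 0.05 to 1.35, adjusted p = 0.0978). The monoubiquitinated pair Fancd2 and Fanci had 0.10 (adjusted p = 0.859) and -0.79 (0.193), at 8 to 52 counts a sample, a depth at which only large differences can be detected.

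In end joining, both subunits of Ku fell and the other 2 genes did not pass. Xrcc6 (Ku70, chromosome 15, 81987835 to 82040085) was at 28.6, 29.9 and 28.8 CPM in Ad-GFP, 24.1, 24.8 and 22 in Ad-hHIF2 and 36.2, 30.8 and 37.3 in Ad-hHIF1 organoids. The Ad-hHIF2 samples were the lowest 3 and the Ad-hHIF1 samples the highest 3. Against Ad-GFP the log2 fold change was -0.34 (SE 0.0724, adjusted p = 0.00824), or 1.27-fold lower. Xrcc5 (Ku80, chromosome 1, 72307421 to 72394952) was at 18.5, 19.8 and 18.4 CPM in Ad-GFP, 15.6, 16.3 and 13.9 in Ad-hHIF2 and 18.7, 22.6 and 21.6 in Ad-hHIF1 organoids. Again the 3 Ad-hHIF2 samples were below all others, at -0.35 (SE 0.0873, adjusted p = 0.0169), a call lost without Ad-GFP replicate 3, Ad-hHIF2 replicate 1 or Ad-hHIF2 replicate 4 (0.0598 to 0.0675). The catalytic kinase subunit Prkdc, which Ku recruits, had 0.13 (95% interval -0.05 to 0.30, adjusted p = 0.269) and the end-joining ligase Lig4 had 0.17 (-0.47 to 0.81, adjusted p = 0.686).

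Base excision and single-strand break repair held the gene with the smallest p in each direction. Apex1 (chromosome 14, 50924968 to 50927139), which cuts the strand at a site that has lost its base, was at 19.5, 19.2 and 18.5 CPM in Ad-GFP, 11.3, 12.0 and 10.4 in Ad-hHIF2 and 15.8, 14.9 and 18.3 in Ad-hHIF1 organoids. The groups did not overlap, with Ad-hHIF2 lowest and Ad-hHIF1 between it and Ad-GFP. Its log2 fold change in Ad-hHIF2 was -0.81 (SE 0.0861, 95% interval -1.01 to -0.62, adjusted p = 0.000254). Lig1 (chromosome 7, 13277283 to 13311433), the ligase of replication and of long-patch excision repair, was at 5.53, 5.94 and 5.61 CPM in Ad-GFP, 10.1, 9.54 and 10.3 in Ad-hHIF2 and 5.99, 3.85 and 7.47 in Ad-hHIF1 organoids. The lowest Ad-hHIF2 sample was above the highest of the other 6. The log2 fold change was 0.76 (SE 0.106, 95% interval 0.52 to 1.0, adjusted p = 0.00109).

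Other genes of this route did not pass against Ad-GFP. Lig3, the ligase that works with Xrcc1, had -0.29 (adjusted p = 0.102), where Ad-hHIF2 replicate 1, at 21.6 CPM, lay within the Ad-GFP range of 21.5 to 24.1. The scaffold Xrcc1 had 0.17 (adjusted p = 0.171) and Ogg1, which removes oxidised guanine, 0.12 (0.68). The break sensor Parp1 (chromosome 1, 180568924 to 180601254) was at 30.0, 26.2 and 29.9 CPM in Ad-GFP, 26.1, 26.8 and 24.0 in Ad-hHIF2 and 30.4, 28.3 and 33.0 in Ad-hHIF1 organoids, with a log2 fold change of -0.20 for Ad-hHIF2 (adjusted p = 0.0954).

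In mismatch repair, Msh6 (chromosome 17, 87975062 to 87990892), which reads single-base mismatches, was at 40.2, 39.4 and 38.0 CPM in Ad-GFP, 53.1, 49.7 and 45.0 in Ad-hHIF2 and 44.4, 52.7 and 52.0 in Ad-hHIF1 organoids. Samples with either HIF were all above Ad-GFP. Its log2 fold change in Ad-hHIF2 was 0.28 (SE 0.0754, adjusted p = 0.0224), and the call was lost without Ad-GFP replicate 1, Ad-GFP replicate 3, Ad-hHIF2 replicate 1 or Ad-hHIF2 replicate 3 (0.0599 to 0.0763). Pms2 (chromosome 5, 143909964 to 143933968), a subunit of the endonuclease that nicks the new strand, was at 11.1, 11.1 and 8.54 CPM in Ad-GFP, 8.42, 8.53 and 9.59 in Ad-hHIF2 and 11.0, 10.7 and 12.0 in Ad-hHIF1 organoids. Ad-GFP replicate 4 lay within the Ad-hHIF2 range, the log2 fold change was -0.27 (adjusted p = 0.148), and without that library it passed (-0.37, adjusted p = 0.0292). Pms2 exons overlap those of Rsph10b and Gm42421 on the same strand.

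Of the 6 nucleotide excision genes, 1 rose. Xpc (chromosome 6, 91489305 to 91515888), which finds distorted DNA, was at 13.0, 12.2 and 14.7 CPM in Ad-GFP, 16.3, 19.6 and 17.3 in Ad-hHIF2 and 13.9, 13.8 and 13.6 in Ad-hHIF1 organoids. The Ad-hHIF2 samples were above all 6 others, with a log2 fold change of 0.37 against Ad-GFP (SE 0.108, adjusted p = 0.0313). That call was lost without Ad-GFP replicate 1, Ad-GFP replicate 3, Ad-hHIF2 replicate 3 or Ad-hHIF2 replicate 4 (0.0636 to 0.115). The other sensor, Ddb2, had 0.21 (adjusted p = 0.347), the nucleases Ercc5 0.22 (0.159) and Ercc1 -0.18 (0.438), the damage verifier Xpa 0.10 (0.546), and the helicase Ercc2 -0.15 (0.369).

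**Figure D3:**
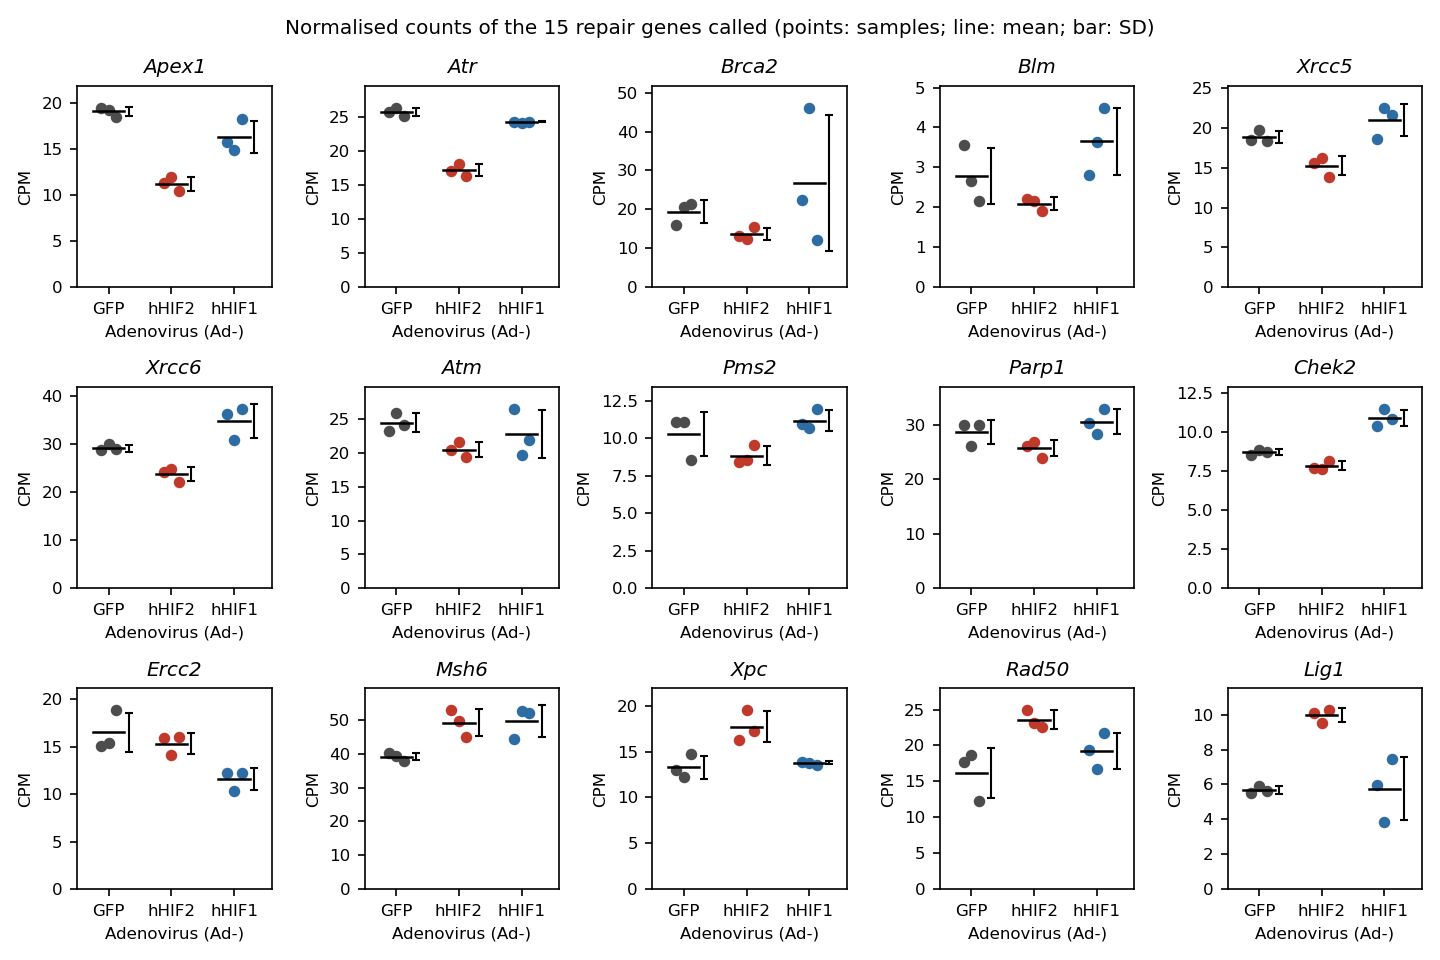
Normalised counts (CPM, vertical axis from 0) of the 15 repair genes that passed the test in either comparison of Ad-hHIF2, by adenovirus, with a point for each sample, a line at the mean and a bar for the SD of 3 samples. Apex1, Atr, Xrcc5 and Xrcc6 are lowest in the 3 Ad-hHIF2 samples, Lig1, Rad50 and Xpc are highest there, and Brca2 reaches 46.2 CPM in a single Ad-hHIF1 sample.

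How firmly these 10 calls stand differed. Apex1, Atr, Xrcc6 and Lig1 passed in all 12 alternatives run, which comprised 2 other filters, another normalization, DESeq2, the replicate block, a fit of all samples and the omission of each of the 6 libraries. Their highest adjusted p in these were 0.00223, 0.00345, 0.0401 and 0.0148. The other calls were each lost without some single libraries, in fits with fewer samples. Log2 fold changes in those fits were 0.455 to 0.523 for Rad50, 0.242 to 0.297 for Msh6 and 0.3 to 0.399 for Xpc. They were -0.286 to -0.262 for Atm, -0.506 to -0.474 for Brca2 and -0.347 to -0.284 for Xrcc5. For Atr, Xrcc6 and Apex1 the expected counts were whole in no sample, and 22 of the 39 genes have exons that overlap another gene of the GENCODE M21 annotation, among them Apex1 with Pip4p1, Xrcc6 with Desi1 and Lig1 with Zswim9 on the opposite strand. Whether the libraries kept the strand is not given in the sources used here.

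No repair gene passed the test between Ad-hHIF1 and Ad-GFP organoids. The count was 0 of 39 in edgeR and 0 in DESeq2, where 0% of the 15233 tested genes passed in edgeR and the smallest adjusted p of a repair gene was 0.486. Without a count filter, edgeR called Brca2 higher (0.44, adjusted p = 0.0214) and Ercc2 lower, and over all genes 258 higher and 126 lower. DESeq2 called 64 genes higher and 75 lower over all genes. At an unadjusted p below 0.05, edgeR held 3 repair genes higher, Chek2, Xrcc6 and Msh6, and 3 lower, Lig3, Apex1 and Ercc2, beside 4.06% and 4.53% of all tested genes. The samples of the groups did not overlap for 3 repair genes higher and 4 lower, beside 10% and 6.78% of all tested genes. Those 3 were Chek2, Xrcc6 and Msh6, and the lower ones were Atr, Lig3, Apex1 and Ercc2. The median log2 fold change over the 39 was 0.024, and with a library left out it ran from -0.003 (Ad-hHIF1 replicate 4) and 0.002 (Ad-GFP replicate 3) to 0.04 (Ad-hHIF1 replicate 3) and 0.053 (Ad-GFP replicate 1). Ad-hHIF1 and Ad-hHIF2 were compared with the same 3 Ad-GFP samples.

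The lowest p belonged to Ercc2 (chromosome 7, 19382010 to 19395694), the helicase that opens DNA around a lesion and that also serves transcription. Ercc2 was at 15.1, 15.4 and 18.9 CPM in Ad-GFP, 12.2, 10.3 and 12.2 in Ad-hHIF1 and 15.9, 14.1 and 16.0 in Ad-hHIF2 organoids. The Ad-hHIF1 samples lay below the other 6, with a log2 fold change of -0.53 (95% interval -0.82 to -0.25, adjusted p = 0.486, edgeR). Ercc2 passed without a count filter (-0.533, adjusted p = 0.0158). Msh6 had 0.32 (95% interval 0.12 to 0.52, adjusted p = 0.491), close to its value in Ad-hHIF2. Xrcc6 had 0.23 (0.04 to 0.42, adjusted p = 0.534) and Chek2 0.29 (0.04 to 0.55, adjusted p = 0.556), both positive where Ad-hHIF2 gave negative values. Apex1 had -0.25 (-0.47 to -0.03, adjusted p = 0.556). Atr had -0.11 (-0.27 to 0.05) and Lig1 -0.00 (-0.53 to 0.52), with Lig1 spread from 3.85 to 7.47 CPM over the 3 Ad-hHIF1 samples.

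Ad-hHIF2 and Ad-hHIF1 organoids were compared directly to test whether the HIF isoforms differed in their effect. The groups also differed in the measured level of the HIF gene. Epas1 was 388-fold higher in Ad-hHIF2 than in Ad-GFP, and Hif1a 1.41-fold higher in Ad-hHIF1, which did not pass. Hif1a started from a far higher level in Ad-GFP than Epas1, so these folds are not on a like footing. Human and mouse reads cannot be told apart for either gene. The study reported HIF overexpression from its vectors by western blot and qRT-PCR. The part of the HIF gene level in the differences below was not tested. The repair genes that differed were mostly lower with HIF2, namely Atr, Xrcc6, Xrcc5, Apex1, Chek2, Parp1, Blm and Pms2, and Lig1, Xpc and Ercc2 were higher. Thus 3 of 39 genes were higher and 8 lower at an adjusted p below 0.05 (edgeR, 15556 genes tested), where 13.7% of all tested genes were higher and 12.0% lower. The 11 genes are 28.2% of the list, beside 25.8% of all tested genes. No repair gene also reached 2-fold, which 6.11% of all genes did. All Ad-hHIF2 samples were above all Ad-hHIF1 samples for 9 repair genes and below for 10, beside 24.2% and 17.8% of all tested genes. The median log2 difference over the list was -0.04, and -0.08, -0.11, -0.07, -0.20 and -0.07 without Ad-hHIF2 replicate 1, Ad-hHIF2 replicate 4, Ad-hHIF1 replicate 1, Ad-hHIF1 replicate 3 and Ad-hHIF1 replicate 4. The genes higher numbered 1 without Ad-hHIF2 replicate 1, Ad-hHIF2 replicate 4, Ad-hHIF1 replicate 1 or Ad-hHIF1 replicate 3, and those lower numbered 5 without Ad-hHIF2 replicate 1 or 4.

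Both Ku subunits differed between the isoforms. The log2 difference, Ad-hHIF2 minus Ad-hHIF1, was -0.58 for Xrcc6 (SE 0.0783, adjusted p = 0.000473) and -0.48 for Xrcc5 (SE 0.0971, adjusted p = 0.00492), or 1.49-fold and 1.40-fold lower with HIF2. Chek2 was 1.41-fold lower (-0.50, 95% interval -0.71 to -0.29, adjusted p = 0.00386), although it passed against Ad-GFP with neither isoform. Atr was 1.44-fold lower (-0.52, adjusted p = 0.000306) and Apex1 1.48-fold lower (-0.57, adjusted p = 0.00128). These 5 genes passed in all 16 alternatives of this comparison. Lig1 was 1.69-fold higher with HIF2 (0.76, SE 0.189, adjusted p = 0.0145), and its adjusted p was 0.0503 without Ad-hHIF2 replicate 1.

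The remaining 5 calls were less firm. Xpc was higher with HIF2 (0.34, adjusted p = 0.0264) and lost the call without any of Ad-hHIF2 replicates 3 and 4 or Ad-hHIF1 replicates 1, 3 and 4 (0.0525 to 0.136) and with DESeq2 (0.0502). Ercc2 was higher (0.38, adjusted p = 0.0318) with all Ad-hHIF1 samples below all Ad-hHIF2 samples, and lost it without Ad-GFP replicate 3, Ad-hHIF2 replicates 1 or 4 or Ad-hHIF1 replicates 1 or 3 (0.0504 to 0.104). Parp1 was lower (-0.28, adjusted p = 0.0274) and lost it without Ad-hHIF2 replicates 1 or 4 or Ad-hHIF1 replicates 1 or 4 (0.0536 to 0.119) and without a count filter (0.108). Blm (chromosome 7, 80454733 to 80535119), which dissolves joined recombination intermediates, was at 3.55, 2.66 and 2.15 CPM in Ad-GFP, 2.22, 2.15 and 1.91 in Ad-hHIF2 and 2.80, 3.63 and 4.5 in Ad-hHIF1 organoids. The Ad-hHIF2 samples were below every Ad-hHIF1 sample, at -0.82 (SE 0.25, adjusted p = 0.0351). This call was lost when any of 6 of the 9 libraries was left out (0.0511 to 0.126) and with the replicate block (0.0666). The exceptions among the libraries were Ad-GFP replicates 1 and 4 and Ad-hHIF1 replicate 1. Pms2 was lower (-0.37, adjusted p = 0.0438) and lost the call without any of the 9 libraries but Ad-GFP replicate 4 (0.0535 to 0.152). The call was also lost with DESeq2 (0.0683), with the replicate block (0.0798) and without a count filter (0.113). Brca2 had the difference of -1.01 (adjusted p = 0.0816), which was -0.36 without Ad-hHIF1 replicate 3 (adjusted p = 0.324), the library with 46.2 CPM of Brca2 and 16.0% of satellite counts, and passed without Ad-hHIF1 replicate 4 (-1.36, adjusted p = 0.00587) and without a count filter (-0.97, adjusted p = 9.1e-15). Fanca had 1.24 (95% interval 0.01 to 2.46, adjusted p = 0.13), with 3 counts in Ad-hHIF1 replicate 3. Its difference was 0.76 without that library (adjusted p = 0.122), and it passed without a count filter (1.252, adjusted p = 0.0305).

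**Figure D4:**
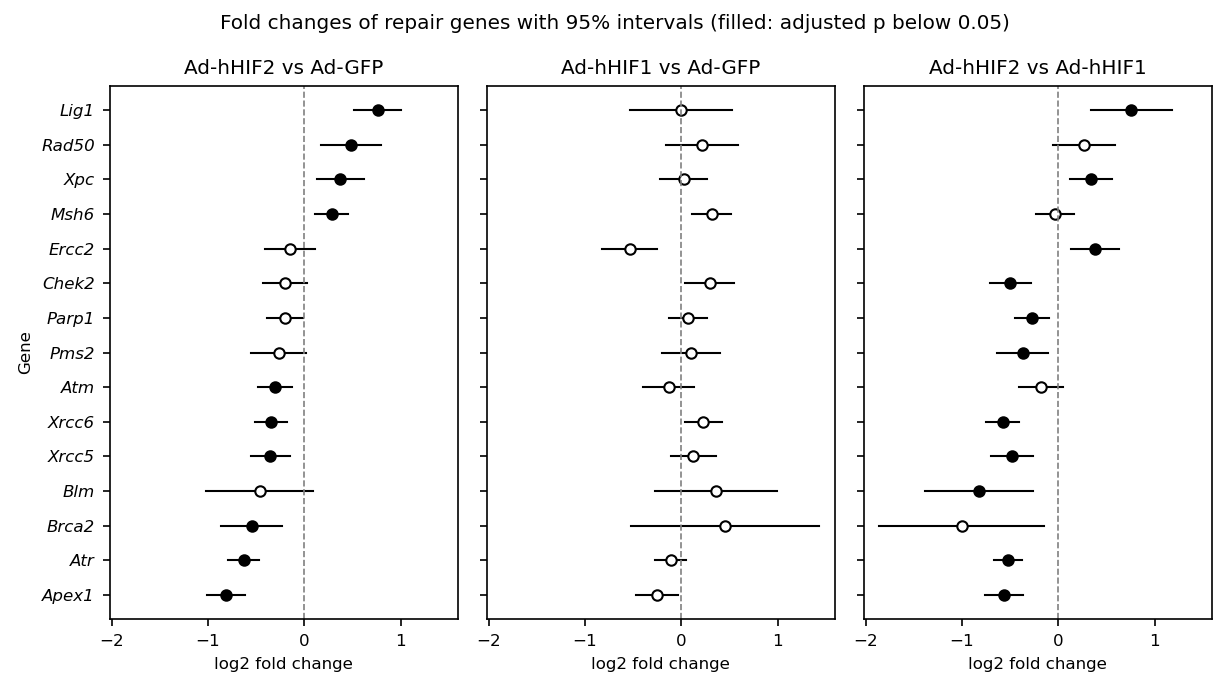
Log2 fold change (point) with its 95% interval (line) for the 15 repair genes that passed in either comparison of Ad-hHIF2, in the 3 comparisons, with filled points where the adjusted p was below 0.05. No point is filled for Ad-hHIF1 against Ad-GFP, and Xrcc6, Xrcc5, Chek2, Brca2, Blm, Pms2 and Parp1 lie above 0 there and below 0 in the other 2 panels.

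Repair genes outside these 39 also moved in both directions. Of a list of 72 tested genes of the same routes, 6 rose and 8 fell in Ad-hHIF2 against Ad-GFP organoids (19.4%, beside 29.5% of all tested genes), with a median log2 fold change of 0.00. Rbbp8 (CtIP), which starts the resection of broken ends, was at 9.51, 11.8 and 10.2 CPM in Ad-GFP, 20.6, 20.8 and 21.5 in Ad-hHIF2 and 13.1, 11.8 and 14.4 in Ad-hHIF1 organoids. Its Ad-hHIF2 samples lay above all others, at a log2 fold change of 0.95 (SE 0.0995, adjusted p = 0.000237, edgeR) against Ad-GFP and 0.65 (adjusted p = 0.00103) against Ad-hHIF1. The Werner helicase Wrn had 0.59 (adjusted p = 0.0023) against Ad-GFP and 0.47 (0.0055) against Ad-hHIF1. Rad9a, of the clamp that activates ATR, had -0.61 (adjusted p = 0.00517) against Ad-GFP, and Gtf2h1, a subunit of the complex that holds Ercc2, had -0.44 (adjusted p = 0.0022) against Ad-hHIF1. Between Ad-hHIF1 and Ad-GFP, 0 of the 72 passed in edgeR. An unadjusted p below 0.05 was found there for 6, 3 higher and 3 lower, beside 4.06% and 4.53% of all tested genes. Against Ad-hHIF1, Ad-hHIF2 organoids held 5 of the 72 higher and 8 lower (18.1%, beside 25.8% of all tested genes). With a library left out, those lower numbered 3 to 6 against Ad-GFP (3 without Ad-GFP replicate 1, Ad-hHIF2 replicate 3 or Ad-hHIF2 replicate 4, and 4 without Ad-GFP replicate 3 or Ad-hHIF2 replicate 1) and 2 to 8 against Ad-hHIF1 (2 without Ad-hHIF2 replicate 4, 4 without Ad-hHIF2 replicate 1 or 3, and 5 without Ad-hHIF1 replicate 1 or 3). Those higher against Ad-hHIF1 numbered 3 without Ad-hHIF2 replicate 1.

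Genes of dividing cells were given beside the repair genes because several of these are expressed mainly while DNA is replicated. Of 28 such genes, 2 rose and 6 fell in Ad-hHIF2 against Ad-GFP organoids (28.6%, beside 29.5% of all tested genes), with a median log2 fold change of -0.32, beside -0.01 for all genes. The summed level of the 28 was 318 to 341 CPM in Ad-GFP, 265 to 282 in Ad-hHIF2 and 328 to 487 in Ad-hHIF1 organoids, so that the Ad-hHIF2 samples were lowest. Tyms alone gave 192 of the 487 CPM in Ad-hHIF1 replicate 3, and without it the other 27 summed to 260 to 273, 242 to 246 and 279 to 295 CPM. Rrm2, which makes deoxynucleotides, rose (0.79, adjusted p = 0.00418), and thymidylate synthase Tyms (-1.03, adjusted p = 0.0053) and the replicative helicase subunit Mcm2 (-0.31, adjusted p = 0.0068) fell. Tyms moved with the satellite share, at 68.5 to 192 CPM in the 4 libraries with 2.89% or more of satellite counts and 23 to 50.7 CPM in the other 5, its expected counts were whole in no sample, and the part of the satellite reads in its difference was not tested. Against Ad-hHIF1, 1 was higher and 8 were lower (32.1%, beside 25.8% of all tested genes), Mcm2 (-0.38, adjusted p = 0.00184), Rrm2 (0.83, adjusted p = 0.00373) and Mcm6 (-0.41, adjusted p = 0.00446) with the smallest p. The number lower against Ad-hHIF1 was 2 without Ad-hHIF2 replicate 1 and 5 without Ad-hHIF2 replicate 3, Ad-hHIF2 replicate 4 or Ad-hHIF1 replicate 4. The part of cell division in the changes of the repair genes was not tested.

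The human genes XPC and DDB2 are known p53 targets, so other p53 targets were listed beside their mouse counterparts. Of 18 tested, 4 rose and 7 fell in Ad-hHIF2 against Ad-GFP organoids (61.1%, beside 29.5% of all tested genes), with a median log2 fold change of -0.18, so that these genes did not move in a single direction. The stress sensor Sesn2 (1.28, adjusted p = 1.51e-05, edgeR), the cell cycle inhibitor Cdkn1a (0.93, adjusted p = 0.000142) and Trp53inp1 (0.89, adjusted p = 0.000183) rose. Cdkn1a was at 28.4, 27.9 and 32.6 CPM in Ad-GFP, 57.6, 55.3 and 62.0 in Ad-hHIF2 and 38.5, 39.2 and 42.1 in Ad-hHIF1 organoids. Against Ad-hHIF1, 3 of 20 were higher and 8 lower (55%, beside 25.8% of all tested genes), led by Sesn2 (1.04, adjusted p = 9.27e-06), Trp53inp1 (0.90, adjusted p = 6.11e-05) and Gdf15 (-1.20, adjusted p = 0.00028). The number lower against Ad-hHIF1 was 4 without Ad-hHIF2 replicate 1, Ad-hHIF2 replicate 4 or Ad-hHIF1 replicate 3, and 5 without Ad-GFP replicate 3, Ad-hHIF2 replicate 3 or Ad-hHIF1 replicate 1. Between Ad-hHIF1 and Ad-GFP, 0 of the 20 passed in edgeR. An unadjusted p below 0.05 was found there for 5 of the 20, 4 higher and 1 lower, beside 4.06% and 4.53% of all tested genes.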

How the data were processed

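RNA sequencing of 9 organoid cultures was analysed, 3 per group. The authors removed low-quality reads and estimated the deposited expected counts per gene with RSEM, per the study's methods and the labels' processing notes; these counts are not normalized. The aligner, genome build, annotation and strandedness are not given in the sources used here. The deposited effective lengths, in bases and also made by the authors with RSEM, were used for levels per kb. The authors' own test, EBSeq, was not run.

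Expected counts (85.7% whole numbers) were rounded, filtered with filterByExpr, normalized by TMM and compared by the quasi-likelihood test of edgeR 4.0.16 (run in R 4.3.3 beside limma 3.58.1), with Benjamini-Hochberg adjustment over all tested genes. CPM values, and the overlap of groups judged from them, used TMM factors of all 9 samples and all genes before the filter. Ratios of CPM therefore differ slightly from the fold changes of the fits. A gene rose or fell at an adjusted p below 0.05, with no minimum fold, and counts at 2-fold were given beside. Each HIF was fitted with Ad-GFP in 6 samples, and the isoforms were contrasted in all 9. Intervals are 95%. With 3 samples a group, an exact two-sided permutation test cannot go below p = 0.1. The steps were tested on simulated data with far fewer changed genes than were called in Ad-hHIF2 organoids. That test does not show how the steps behave when many genes change. Library totals were 21722618 to 51119041 counts, and p-values measure the spread between these cultures. No pair of libraries of a group agreed within sampling noise (smallest chi-square 16.8 per degree of freedom).

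The 39 genes and all lists were chosen with earlier results of these data known. Values in every sample were given for repair genes with an adjusted p below 0.05 in any comparison and for the gene of smallest p in a role without any. Of the other lists, the 3 genes of smallest p per comparison among those that passed were named. The sample values of Bard1, Brca1, Lig3 and Cdkn1a and the CPM ranges of Xrcc3 and Ptprc were added after their values were seen. So were the satellite shares beside Brca2, Xrcc3 and Tyms and the sum without Tyms. In the list of other repair genes, 1 of 73 was not tested. Gene positions come from GENCODE M21 (GRCm38), matched by Ensembl identifier, and promoters from RefSeq (GRCm38.p6), matched by symbol.

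The alternatives tried were DESeq2 1.42.0, size factors by median ratios, dropping the count filter, a stricter filter of 10 counts per library, the replicate block, the other choice of samples for the fit, each library left out, and a 2-fold minimum. Leaving out Ad-hHIF1 replicate 3 and Ad-GFP replicate 4 together was chosen after seeing the data. Figures were drawn with matplotlib 3.10.9.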

Additional observations from a re-analysis of the deposited data

How the results depend on the processing

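The 16 repair genes with values in every sample were refitted one by one under each alternative, and none of their calls turned to the other direction; the other 23 entered only the counts and medians. Against Ad-GFP, the repair genes higher in Ad-hHIF2 numbered 1 to 4 and those lower 3 to 7 with a library left out, the fewest higher without Ad-hHIF2 replicate 3 and the fewest lower without Ad-hHIF2 replicate 1, and 0 and 0 with a 2-fold minimum; the genes lower over all genes numbered 1330 to 1989 with a library left out, and 435 rose and 574 fell at 2-fold. The median of the repair genes, 0.06 with all samples, ran from -0.039 to 0.039 with a library left out and from 0.05 to 0.091 under the other settings. For Ad-hHIF1 against Ad-GFP, 1 repair gene rose (Brca2) and 1 fell (Ercc2) without a count filter. Over all genes, 258 rose and 126 fell without the filter, 64 and 75 with DESeq2, 6 and 1 in a fit of all 9 samples, and 8 and 5 with Ad-hHIF1 replicate 3 and Ad-GFP replicate 4 both left out. Between the isoforms, repair genes higher with HIF2 numbered 1 to 3 and lower 5 to 8 with a library left out, and 0 and 0 at 2-fold; with both of those libraries left out, 5 were higher and the median was -0.203. Over all genes, those lower numbered 1111 to 2079 with a library left out, the fewest without Ad-hHIF2 replicate 1, and 376 rose and 575 fell at 2-fold. The median between the isoforms ran from -0.2 to -0.046 with a library left out. The causes were not tested.

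The replicate numbers were not taken as pairs, since same-numbered samples did not all correlate above 0.1 in their deviations from group means (0.07 to 0.134 for Ad-hHIF2 with Ad-GFP, -0.091 to 0.097 for Ad-hHIF1 with Ad-GFP, -0.194 to -0.067 for the isoforms), although every Ad-hHIF2 sample correlated best with the Ad-GFP sample of its number. With the replicate block, 4 repair genes rose and 7 fell in Ad-hHIF2, 0 and 0 in Ad-hHIF1, and 3 and 6 between the isoforms, where Blm (adjusted p = 0.0666) and Pms2 (0.0798) were lost. In the 250 bases before the start alone, 23 of 32 promoters still held ACGTG or GCGTG, beside 41.5% of all symbols and 61.5% of tested ones, and 4 an E2F match (12.5%, beside 1.8% and 3.4%), those of Chek2, Brca2, Bard1 and Xrcc6. With 3 cultures a group and as few as 3 counts for Fanca in a sample, small differences in the Fanconi and some recombination genes were not detectable.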
